A study of Homo sapiens with 12 samples.

Results

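Ferritin mRNAs and the mRNAs of iron uptake and iron sensing were followed through the ribosome fractions of MCF10A, an immortal breast epithelial line that does not form tumours. The 8 genes listed were chosen from these data and from known biology: FTH1 had the highest TPM (a level per transcript length, scaled to the library) of any gene in a WT free library, and FTL, TFRC, ACO1, IREB2, HMOX1, NCOA4 and FBXL5 belong to the same pathway. A row was matched for 7 of the 8 among the 56632 genes of the tables, all 7 passed the low-count filter that left 16275 genes, and NCOA4 was not analysed here. The level that selected FTH1 was 46411 TPM in WT free replicate 1, ahead of the mitochondrial MT-CO3 at 36382 TPM. In WT free replicate 2 FTH1 was at 15964 TPM and ranked 11.

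WT cells and CBFB_KO cells, made with CRISPR-Cas9 and grown from single-cell colonies, were compared. CBFB is the beta subunit of the core-binding transcription factor, and the study asked whether its loss changes how mRNAs load onto ribosomes. Both genotypes were grown with horse serum, insulin, EGF, hydrocortisone and cholera toxin, and both received 100 µg/ml cycloheximide for 30 min, which holds ribosomes on the mRNA. Lysates were spread over sucrose gradients of 10 to 50%, and RNA was sequenced from the free fraction (no ribosome), the monoribosomal fraction (mono) and the pooled polyribosomal fraction (poly), with 2 libraries for each of the 6 groups, 12 in all. No iron salt or chelator is named in the labels.

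Cells keep iron in ferritin, a shell built of heavy chains (FTH1) and light chains (FTL), and take it up through the transferrin receptor (TFRC). The iron regulatory proteins, made from ACO1 and IREB2, bind a stem-loop in mRNA called the iron-responsive element when iron is scarce. At the 5′ end of an mRNA the bound protein blocks ribosome loading, as on the ferritins, and in the 3′ untranslated region it protects the mRNA from cleavage, as on TFRC. ACO1 protein becomes the cytosolic aconitase when it holds an iron-sulphur cluster, FBXL5 is the ubiquitin ligase subunit that marks IREB2 protein for degradation when iron is plentiful, and HMOX1 frees iron from haem.

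The elements are shown because they are what divides the members by mechanism. They were found in the GENCODE 29 transcripts (GRCh38) by letters: a bulged C, 5 bases, the loop CAGTGN, and 5 bases that pair with the first 5, with G-T pairs allowed, on the mRNA strand only. Capitals mark the bulged C and the 6 bases of the loop.
FTH1, 5′ untranslated region, chr11:61967575-61967601, minus strand: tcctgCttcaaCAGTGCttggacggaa
FTL, 5′ untranslated region, chr19:48965336-48965362, plus strand: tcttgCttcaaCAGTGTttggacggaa
TFRC, 3′ untranslated region, chr3:196050980-196051006, minus strand: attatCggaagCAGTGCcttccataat
TFRC, 3′ untranslated region, chr3:196050576-196050602, minus strand: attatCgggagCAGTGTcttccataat
TFRC, 3′ untranslated region, chr3:196050511-196050537, minus strand: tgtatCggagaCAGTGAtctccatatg
TFRC, 3′ untranslated region, chr3:196050464-196050490, minus strand: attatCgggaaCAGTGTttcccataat

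The FTH1 and FTL elements were the same at 25 of 27 positions and differed by C3T and C17T, counted from 1 at the 5′ end of the printed sequence with FTH1 first. The search matched the 5′ untranslated region of 28 of 19641 protein-coding genes (0.143%) and the 3′ untranslated region of 127 (0.647%). TFRC was the 1 gene (0.00509%) with 4 or more matches in its 3′ untranslated region. No match was found in the transcripts of ACO1, IREB2, HMOX1 or FBXL5, which says only that these letters were not there.

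Library totals ran from 41050325 to 63886726 expected counts. In CBFB_KO free, 71.6% and 87.2% of each library came from genes of the mitochondrial genome, against 11.1% and 20.8% in WT free and 1.26% to 8.08% in the other 8 libraries. Nuclear genes thus had 13568143 and 5247878 counts in CBFB_KO free, and 43279862 at the least elsewhere. Levels between libraries are therefore given below as TMM CPM, the counts divided by library size and by edgeR's trimmed-mean factor, which centres the bulk of genes. A fraction was sequenced as a share of its own RNA, so fewer cells, less RNA per cell and less RNA in a fraction cannot be told apart. The 2 CBFB_KO poly libraries were far more alike than any other pair, with a mean chi-square per gene of 2.21 against 118.5 to 901.5 for the other 5 pairs. CBFB mRNA itself lay between 5.37 and 12.6 TMM CPM in WT and between 3.59 and 14.1 in CBFB_KO, which checks little, since a CRISPR lesion need not remove the mRNA. The basal keratin KRT5 was at 83.9 TPM or more in every library and PTPRC, the pan-leukocyte marker, was listed at 0 in all 12. The other basal markers read had lower minima, from 0.09 TPM for KRT14 to 6.45 for KRT6A. CD68, read as a leukocyte marker, reached 6.37 TPM, and GATA3, read as a luminal marker, reached 7.9. Of the red cell precursor markers HBB and ALAS2 reached at most 0.14 TPM, while HBA1 reached 64.4.

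**Figure D1:**
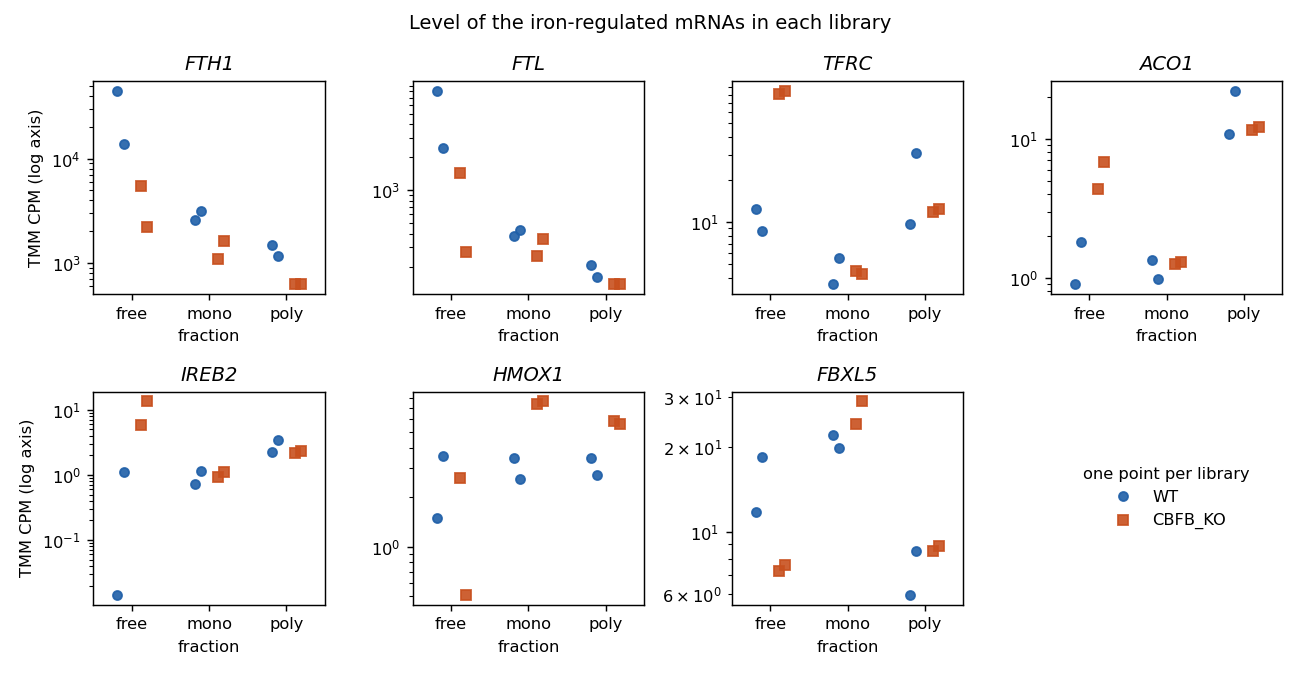
Level of each of the 7 matched mRNAs as TMM CPM (log axis, scale differing between panels) in the free, mono and poly fractions; each point is 1 library, WT as circles and CBFB_KO as squares, replicate 1 to the left. FTH1 and FTL lie lower in poly than in free in both genotypes, TFRC is highest in the CBFB_KO free libraries at 80.6 and 85.4, and ACO1 is highest in poly.

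The ferritin heavy chain was by far the most abundant member in free RNA. FTH1, which oxidises iron for storage, stood at 44821 and 13850 TMM CPM in the WT free libraries, 2557 and 3146 in mono and 1482 and 1159 in poly. In CBFB_KO the corresponding levels were 5421 and 2197 in free, 1078 and 1607 in mono and 629 and 621 in poly. Every free library of a genotype was above every mono library of that genotype, and every mono library was above every poly library.

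FTL, the light chain that helps the iron core to form, followed the same order at a lower level. Its WT values were 8116 and 2429 TMM CPM in free, 382.2 and 431.8 in mono and 207.1 and 161.2 in poly. In CBFB_KO they were 1432 and 275.0 in free, 252.0 and 355.6 in mono and 137.6 and 139.4 in poly. The CBFB_KO free and mono libraries overlapped, which FTH1's did not.

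FTL fell from free to poly in WT by 4.84 on the log2 scale (SE 0.80, adjusted p = 0.00293 by edgeR's quasi-likelihood test). FTH1 differed by -4.47 (SE 0.64) in that contrast, given with no test because the WT free level selected it. In CBFB_KO both ferritins fell from free to poly, FTH1 by 2.61 (SE 0.59, adjusted p = 0.00681) and FTL by 2.62 (SE 0.72, adjusted p = 0.0186). The decreases were therefore 6.10-fold and 6.16-fold in CBFB_KO, against a fitted 22.2-fold and 28.6-fold in WT. The difference between genotypes did not pass the test for FTL, at 2.22 (SE 0.98, adjusted p = 0.121, or 3.57 and 0.0473 without TMM factors), and for FTH1 it was 1.87 (SE 0.79) with no test. From mono to poly neither ferritin passed: FTH1 differed by -1.11 (SE 0.56) in WT and -1.10 (SE 0.56) in CBFB_KO, and FTL by -1.14 (SE 0.69) and -1.13 (SE 0.69).

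Replicates of the free fraction were far apart. The WT call for FTL missed the threshold without WT replicate 1 (-3.89, adjusted p = 0.0679). The CBFB_KO calls for both ferritins were lost when the CBFB_KO poly pair was counted as 1 sample, with adjusted p = 0.064 for FTH1 and 0.114 for FTL, and without either CBFB_KO gradient (values between -3.09 and -1.80 for FTH1 and between -3.36 and -0.96 for FTL). Without TMM factors the median of all genes in that contrast moved from -0.12 to 2.05, and the ferritins were at -0.58 and -0.70 (adjusted p = 0.465 and 0.490), or 2.62 and 2.75 below the median.

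Between genotypes both ferritins were lower in the CBFB_KO free fraction. FTL fell by 2.63 on the log2 scale (SE 0.72, adjusted p = 0.0161), and FTH1 differed by -2.95 (SE 0.59) with no test. Without WT replicate 1 the FTL value was -1.50 (adjusted p = 0.188), without CBFB_KO replicate 2 it was -1.87 (adjusted p = 0.112), and without CBFB_KO replicate 1 it was -4.26 (adjusted p = 0.00421). In mono FTH1 differed by -1.09 (SE 0.56) and in poly by -1.08 (SE 0.56), and the levels of the genotypes did not overlap in either fraction, but both adjusted p-values were 1 by edgeR. Such a separation of 2 libraries from 2 has a two-sided p of 0.333 by an exact permutation test, so it carries little weight. The share of all genes separated in this way was not counted. FTL differed by -0.42 (SE 0.68) in mono and -0.41 (SE 0.68) in poly, which also missed the threshold. Together the ferritin mRNAs took 5.95% and 2.02% of all counts in the WT free libraries, 0.338% and 0.0596% in the CBFB_KO free libraries and 0.131% to 0.320% elsewhere. Of the nuclear counts alone they took 6.69% and 2.55% in WT free and 1.19% and 0.466% in CBFB_KO free.

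**Figure D2:**
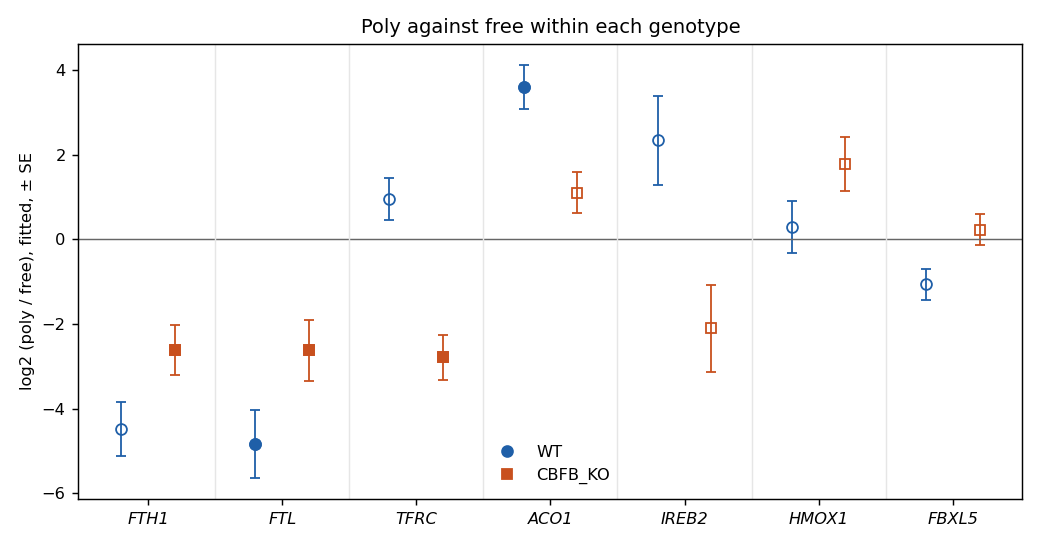
Fitted log2 ratio of poly to free for each member, WT as circles and CBFB_KO as squares; bars are the standard error from edgeR over all 12 libraries. Filled symbols passed an adjusted p under 0.05 and open ones did not, except the open WT symbol of FTH1, which was not tested. FTL is at -4.84 in WT and -2.62 in CBFB_KO, and TFRC lies above 0 in WT (0.95) and below it in CBFB_KO (-2.78).

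The proportion of the 2 ferritin chains can be read inside a library, where no scaling between libraries enters. Per transcript length, FTH1 to FTL was 4.62 and 4.79 in WT free, 4.62 and 5.18 in WT mono and 5.70 and 5.83 in WT poly. In CBFB_KO it was 3.13 and 6.40 in free, 3.03 and 3.18 in mono and 3.82 and 3.68 in poly. In mono and in poly both CBFB_KO libraries were below both WT libraries, while the CBFB_KO free libraries lay on either side of the WT ones. The ratio was not tested, since an exact permutation test of 2 libraries against 2 cannot give a two-sided p under 0.333.

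Ferritin heavy chain and transferrin receptor, the storage and the uptake arm, were also set against each other within libraries. FTH1 to TFRC was 20356 and 9227 by TPM in WT free, 3291 and 2782 in mono and 842.9 and 210.5 in poly. In CBFB_KO it was 400.6 and 98.2 in free, 1152 and 1648 in mono and 285.9 and 282.6 in poly. The WT free libraries held the highest ratios and CBFB_KO free replicate 2 the lowest of the 12, with no overlap between the genotypes in free or mono and overlap in poly. The free ratios are a description, because the WT free TPM of FTH1 is what selected it.

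**Figure D3:**
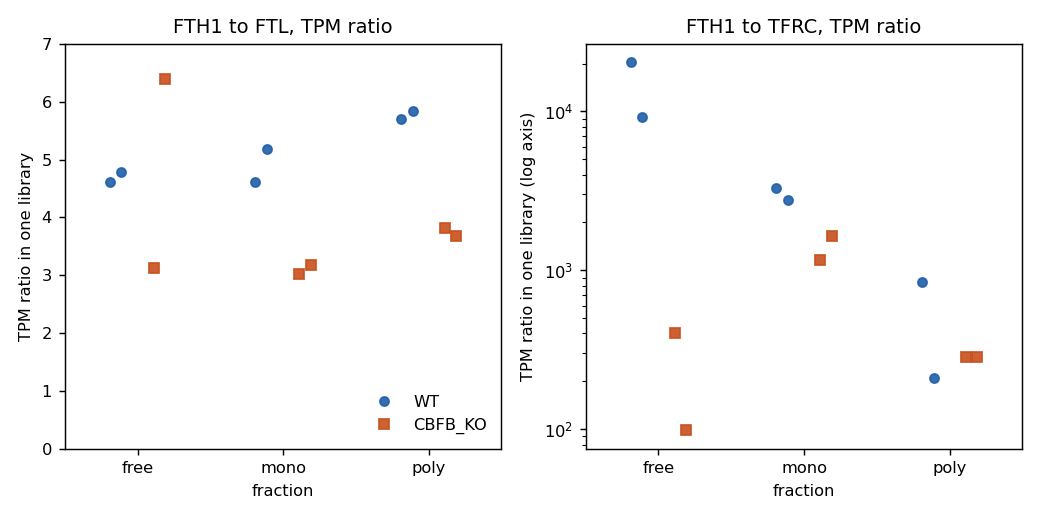
TPM ratios inside single libraries by fraction, FTH1 to FTL on a linear axis from 0 (left) and FTH1 to TFRC on a log axis (right); each point is 1 library, WT as circles and CBFB_KO as squares. FTH1 to FTL is 3.03 to 3.82 in the CBFB_KO mono and poly libraries and 4.62 to 5.83 in those of WT.

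TFRC, the receptor that brings transferrin-bound iron into the cell, was the member with the smallest adjusted p in the test of whether poly to free differed between genotypes. Its levels were 12.3 and 8.56 TMM CPM in WT free, 3.60 and 5.54 in mono and 9.61 and 30.6 in poly. In CBFB_KO they were 80.6 and 85.4 in free, 4.51 and 4.27 in mono and 11.8 and 12.3 in poly. The CBFB_KO free libraries were above all other libraries, and the genotypes overlapped in mono and in poly.

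TFRC rose in CBFB_KO free over WT free by 2.99 on the log2 scale (SE 0.53, 7.96-fold, adjusted p = 0.00200). It fell from free to poly in CBFB_KO by 2.78 (SE 0.53, adjusted p = 0.00294), and in WT its poly to free value was 0.95 (SE 0.50, adjusted p = 0.188). The test of that difference gave -3.73 (SE 0.72, adjusted p = 0.00589). From mono to poly TFRC rose in WT by 2.14 (SE 0.52, adjusted p = 0.0146), and in CBFB_KO the value was 1.45 (SE 0.51, adjusted p = 0.0710). Without WT replicate 2, which leaves 1 library in each WT group, the WT value was 1.57 and was not called.

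The free-fraction results for TFRC stand beside the mitochondrial shares given above, whose part in them was not tested. Only the scaling was varied. With mitochondrial genes left out before scaling, the CBFB_KO to WT value in free was 2.98 (adjusted p = 0.00204) and the genotype difference -3.72 (adjusted p = 0.00599). TMM already centres the bulk of genes, so this fit could move these values only slightly. It cannot show what part the mitochondrial share itself plays. Without TMM factors the median of all genes for CBFB_KO to WT in free moved to -1.57. TFRC was then at 1.31 (adjusted p = 0.100), or 2.87 above the median. Poly to free in CBFB_KO was then -0.54 (adjusted p = 0.481), or 2.59 below its median, and the genotype difference -2.08 (adjusted p = 0.0921). On the TPM scale, which holds the mitochondrial RNA in its sum, TFRC was at 4.42 and 2.55 in CBFB_KO free, at 2.28 and 1.73 in WT free and at 3.68 and 3.66 in CBFB_KO poly. Without CBFB_KO replicate 2, which leaves 1 library in each CBFB_KO group, the genotype difference in poly to free was -3.74 and was not called.

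ACO1 mRNA, which codes for the dual-purpose aconitase and iron regulatory protein, was concentrated in poly. It stood at 0.899 and 1.80 TMM CPM in WT free, 1.34 and 0.991 in mono and 10.8 and 22.2 in poly. In CBFB_KO it was at 4.33 and 6.78 in free, 1.26 and 1.30 in mono and 11.5 and 12.2 in poly. Each poly library was above every free and mono library of both genotypes.

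ACO1 rose from free to poly in WT by 3.61 on the log2 scale (SE 0.52, 12.2-fold, adjusted p = 0.00190) and from mono to poly by 3.82 (SE 0.53, adjusted p = 0.00320). In CBFB_KO it rose from mono to poly by 3.21 (SE 0.51, adjusted p = 0.00615), and its poly to free value was 1.11 (SE 0.48, adjusted p = 0.0993). The difference between the genotypes in poly to free passed, at -2.50 (SE 0.68, adjusted p = 0.0273), in 8 of 15 alternatives. Without TMM factors it was -0.71 (adjusted p = 0.501), or 2.25 below the median of all genes. Poly to free in CBFB_KO was then 3.44 (adjusted p = 0.00109), beside a median of 2.05 for all genes. In free ACO1 rose in CBFB_KO by 2.03 (SE 0.50, adjusted p = 0.00964). That rise also depends on the scale: without TMM factors the value was 0.22 (adjusted p = 0.764), or 1.78 above the median of -1.57 for all genes. By TPM, which holds the mitochondrial RNA in its sum, ACO1 was lower in CBFB_KO free, at 0.34 and 0.19, than in WT free, at 0.44 and 0.54. Without CBFB_KO replicate 2 the rise was 1.69, and the genotype difference in poly to free was then -2.21, or -2.75 without CBFB_KO replicate 1. None of these values was called, in fits that keep 1 library in each CBFB_KO group. The mono to poly value was 3.17 in WT without WT replicate 2, and 3.20 and 3.25 in CBFB_KO without either CBFB_KO gradient. Its calls were lost in these fits and, in CBFB_KO, with the CBFB_KO poly pair as 1 sample. Each of these fits keeps 1 library in a group compared, so the loss says little of ACO1.

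IREB2 mRNA, which codes for the second iron regulatory protein, was scarce in all 12 libraries, with 1 to 311 counts. Its levels were 0.0143 and 1.09 TMM CPM in WT free, 0.738 and 1.14 in mono and 2.22 and 3.43 in poly. In CBFB_KO they were 5.95 and 13.5 in free, 0.929 and 1.10 in mono and 2.16 and 2.33 in poly. The lowest value rests on 1 count in WT free replicate 1, under the 3 counts taken as the smallest detectable number.

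IREB2 rose in CBFB_KO free over WT free by 4.11 on the log2 scale (SE 1.13, adjusted p = 0.0159), without CBFB_KO replicate 2 the value was 3.42 (adjusted p = 0.145), and with library size as the sole scaling 2.17 (adjusted p = 0.113). Without WT replicate 2 it was 9.13 and rested on that 1 WT count. Its genotype difference in poly to free was -4.44 (SE 1.47, adjusted p = 0.0563), which missed the threshold. The other contrasts of IREB2 did not pass, including poly to free at 2.34 (SE 1.05, adjusted p = 0.128) in WT and -2.10 (SE 1.03, adjusted p = 0.140) in CBFB_KO. Per transcript length ACO1 exceeded IREB2 by 8.40 and 11.3 times in WT poly and by 8.58 and 9.67 times in CBFB_KO poly. In mono that ratio was 3.25 and 0.778 in WT and 1.20 and 1.14 in CBFB_KO, so both genotypes had a higher ratio in poly than in mono.

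FBXL5, the sensor subunit of the ligase that removes IREB2 protein, was the 1 member called lower in poly than in mono in both genotypes. Its levels were 11.8 and 18.4 TMM CPM in WT free, 22.0 and 19.8 in mono and 5.95 and 8.56 in poly. In CBFB_KO they were 7.22 and 7.59 in free, 24.0 and 29.0 in mono and 8.51 and 8.85 in poly. Every mono library was above every free and poly library.

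FBXL5 fell from mono to poly in WT by 1.52 on the log2 scale (SE 0.37, adjusted p = 0.0147) and in CBFB_KO by 1.61 (SE 0.37, adjusted p = 0.0153). In free it fell in CBFB_KO against WT by 1.03 (SE 0.37, adjusted p = 0.0433), a call lost in 7 of 14 alternatives, among them those without CBFB_KO replicate 1 (adjusted p = 0.216), CBFB_KO replicate 2 (0.240) and WT replicate 2 (0.144). The mono to poly calls were lost without TMM factors (-0.64 in WT and -0.65 in CBFB_KO). They were also lost without either gradient of the genotype concerned, at -1.19 and -1.73 in WT and -1.70 and -1.48 in CBFB_KO. The WT call was lost without CBFB_KO replicate 1 too, and the CBFB_KO call with the poly pair as 1 sample. Fits without a gradient or with that pair as 1 sample keep 1 library in a group, so these losses say little of FBXL5. The poly to free values were -1.06 (SE 0.36, adjusted p = 0.0586) in WT and 0.23 (SE 0.37, adjusted p = 0.655) in CBFB_KO. Without TMM factors the CBFB_KO value was 2.47 (adjusted p = 0.00325), which is 0.42 above the median of 2.05 for all genes.

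The length of the transcripts counted for FBXL5 also differed along the gradient. The RSEM mean transcript length, an average over isoforms weighted by their abundance, was 689 and 743 bases in WT mono and 770 and 685 in CBFB_KO mono. In poly it was 1174 and 1251 bases in WT and 1173 and 1192 in CBFB_KO. All 4 mono libraries were below all 4 poly libraries, and the free libraries, at 747 and 943 bases in WT and 1047 and 1601 in CBFB_KO, overlapped both. FTH1 showed the reverse order on a smaller scale, with 1161 to 1188 bases in mono and 1014 to 1055 in poly, and FTL had 1 length of 878 bases throughout. Which FBXL5 isoforms these were was not tested, and the gene FAM200B on the opposite strand overlaps FBXL5 in GENCODE 29 with 109 to 1672 counts.

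**Figure D4:**
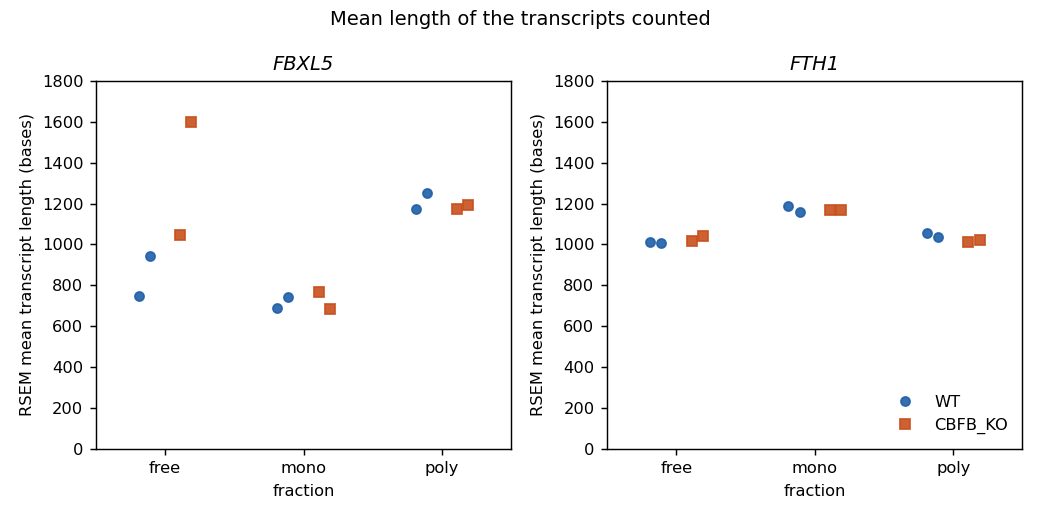
RSEM mean transcript length in bases of FBXL5 (left) and FTH1 (right) by fraction; each point is 1 library, WT as circles and CBFB_KO as squares, both axes from 0. FBXL5 lies between 685 and 770 bases in the 4 mono libraries and between 1173 and 1251 in the 4 poly libraries.

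HMOX1, the inducible haem oxygenase, passed no test over all 12 libraries with TMM scaling. It stood at 1.50 and 3.58 TMM CPM in WT free, 3.47 and 2.56 in mono and 3.49 and 2.75 in poly. In CBFB_KO it was at 2.63 and 0.506 in free, 7.43 and 7.67 in mono and 5.80 and 5.58 in poly. The genotypes did not overlap in mono or in poly, where the CBFB_KO libraries were the higher, and the fitted differences were 1.32 (SE 0.62, unadjusted p = 0.0550, adjusted p = 1 by edgeR) and 0.87 (SE 0.61, unadjusted p = 0.181, adjusted p = 1 by edgeR). As for FTH1, a separation of 2 libraries from 2 carries little weight (two-sided p of 0.333 by an exact permutation test). CBFB_KO free replicate 2 held 5 counts of HMOX1, and the poly to free value in CBFB_KO was 1.78 (SE 0.64, adjusted p = 0.0550). That value lay close to the threshold and passed in 7 of 15 alternatives. Among them were DESeq2 (1.70, adjusted p = 0.0200) and no TMM factors (3.77, adjusted p = 0.00428, or 1.72 above the median of all genes). The value was 3.48 without CBFB_KO replicate 1 and 1.15 without CBFB_KO replicate 2, in fits that keep 1 library in each CBFB_KO group.

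**Figure D5:**
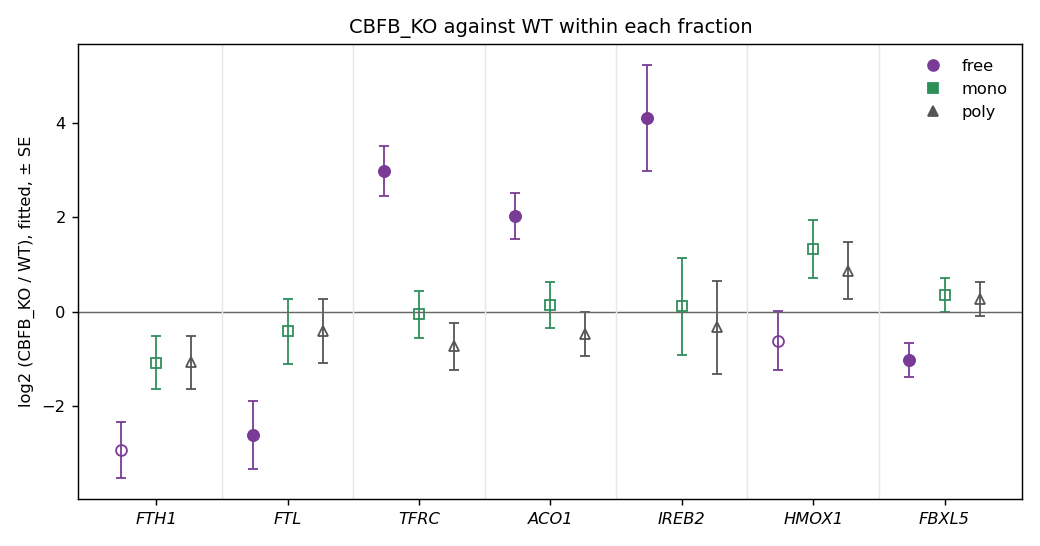
Fitted log2 ratio of CBFB_KO to WT for each member in free (circles), mono (squares) and poly (triangles); bars are the standard error from edgeR over all 12 libraries, and filled symbols passed an adjusted p under 0.05. Filled symbols appear in free alone, for FTL, TFRC, ACO1, IREB2 and FBXL5; the free value of FTH1 (-2.95) was not tested.

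Counted over the members, the calls lay mostly in comparisons that use a free fraction, as did the calls over all genes. Over all genes the comparisons with a free fraction gave 3574, 5104, 6882 and 3000 calls. The comparisons without it gave 3360, 2744, 24, 31 and 0. FTH1 is left out of the counts in contrasts with WT free, which leaves 6 members there and 7 elsewhere. From free to poly in WT 1 rose and 1 fell, where 14% of all tested genes rose and 7.99% fell. In CBFB_KO 0 rose and 3 fell by edgeR, against 14.6% and 16.7% of all genes; 2 were higher at an unadjusted p under 0.05 and DESeq2 called 1 higher. From mono to poly 2 rose and 1 fell in WT, against 11% and 9.68%, and 1 rose and 1 fell in CBFB_KO, against 8.2% and 8.66%. In free, CBFB_KO against WT, 3 rose and 2 fell, against 24.2% and 18.1% of all genes. For the genotype difference in poly to free, 0 were higher and 2 lower by edgeR, against 4.1% and 14.3%; 2 were higher at an unadjusted p under 0.05 and DESeq2 called 1 higher. One call is 16.7% of 6 members or 14.3% of 7, close to the share of all genes in several of these directions, and the members were chosen with results known.

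Between genotypes within mono or poly no member was called. By edgeR the counts were 0 of 7 in each, with 0 also at an unadjusted p under 0.05, and DESeq2 called 0 in each. All genes together gave few calls there, 0.0307% higher and 0.117% lower in mono and 0.0246% higher and 0.166% lower in poly. The genotype difference in poly to mono gave 0 of 7 members by edgeR and by DESeq2, 0 of 7 at an unadjusted p under 0.05, and 0% of all genes in either direction by edgeR, with 164 genes at an unadjusted p under 0.05 and 0 by DESeq2. The median over the 6 members without FTH1 was 0.62 for poly to free in WT against 0.08 for all genes and 0.71 for CBFB_KO to WT in free against 0.04, and over all 7 it was -2.10 for poly to free in CBFB_KO against -0.12.

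The other genes of iron handling were read from lists of 79 genes in all, of which 71 were tested. From free to poly 15 (21.1%) rose and 5 (7.04%) fell in WT, where 14% and 7.99% of all tested genes did, and 23 (32.4%) rose and 9 (12.7%) fell in CBFB_KO, against 14.6% and 16.7%. In free 18 (25.4%) rose and 21 (29.6%) fell in CBFB_KO against WT, where 24.2% of all tested genes rose and 18.1% fell, and each list below is to be read against those shares. In mono and in poly 0 of 71 were called between genotypes by edgeR or DESeq2, with 1 and 0 at an unadjusted p under 0.05. The median difference in free between CBFB_KO and WT was 0.98 for uptake and reduction, 0.98 for the other mRNAs with an element, 0.78 for storage, chaperones and export, -0.25 for regulation, -0.74 for haem, -1.64 for iron-sulphur clusters and -0.01 for NRF2 targets, against 0.04 for all genes.

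Among 9 tested genes of uptake and reduction, 4 rose and 1 fell in CBFB_KO free, against 24.2% and 18.1% of all genes. SLC39A14, a zinc and iron importer, was at 2.34 and 2.60 TMM CPM in WT free and 15.5 and 23.1 in CBFB_KO free, a rise of 2.96 on the log2 scale (SE 0.45, adjusted p = 0.000786), or 1.18 (adjusted p = 0.0607) without TMM factors. In poly it was at 11.0 and 20.0 in WT and 9.22 and 8.64 in CBFB_KO, and its genotype difference in poly to free was -3.76 (SE 0.61, adjusted p = 0.00238), or -1.99 (adjusted p = 0.0524) without them. STEAP2, a metalloreductase, rose in CBFB_KO free by 4.95 (SE 1.46, adjusted p = 0.0208) and the importer SLC39A8 by 2.51 (SE 0.61, adjusted p = 0.00965). Without CBFB_KO replicate 2's free library both missed the threshold (adjusted p = 0.0748 and 0.0573), as they did without TMM factors (3.13 and 0.69, adjusted p = 0.107 and 0.337). STEAP2 was listed at 0 in WT free replicate 1 and at 0.154 TMM CPM in replicate 2, and its value was 10.1 without WT replicate 2.

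Of 5 tested further mRNAs known to hold an iron-responsive element, 2 rose and 1 fell in CBFB_KO free. CDC42BPA, a kinase with an element in its 3′ untranslated region, was at 1.90 and 3.72 TMM CPM in WT free and 24.4 and 44.9 in CBFB_KO free (log2 change 3.62, SE 0.62, adjusted p = 0.00161). EPAS1, the hypoxia-inducible factor subunit whose element is in the 5′ untranslated region, was at 10.4 and 14.6 in WT free and 47.1 and 66.5 in CBFB_KO free (2.18, SE 0.40, adjusted p = 0.00248). The EPAS1 value was 0.40 (adjusted p = 0.535) without TMM factors and missed the threshold with only the groups compared in the fit (adjusted p = 0.0687). In poly EPAS1 rose over free in WT by 1.92 (SE 0.40, adjusted p = 0.00775), opposite in sign to the ferritins. That value passed in 14 of 15 alternatives and missed without WT replicate 1.

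PCBP2, an RNA-binding protein that also delivers iron to ferritin, showed the widest difference of the 5 tested storage, chaperone and export genes. It was at 275.4 and 358.7 TMM CPM in WT free and 4970 and 9117 in CBFB_KO free, and between 250.5 and 352.0 in all 4 poly libraries. The rise in free was 4.47 on the log2 scale (SE 0.44, adjusted p = 8.94e-05), and the genotype difference in poly to free was -4.80 (SE 0.57, adjusted p = 0.000521). PCBP2 was the 1 gene of this list called in either contrast.

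Among 21 tested genes of iron-sulphur cluster assembly, the machinery whose product turns ACO1 protein into an aconitase, 3 rose and 12 fell in CBFB_KO free, against 24.2% and 18.1% of all genes. The chaperone HSPA9 rose by 2.81 (SE 0.57, adjusted p = 0.00399), or 1.01 (adjusted p = 0.175) without TMM factors, while NUBP2, a cytosolic scaffold protein, fell by 2.46 (SE 0.83, adjusted p = 0.0344). From free to poly 4 rose and 1 fell in WT, against 14% and 7.99% of all genes, and 11 rose and 0 fell in CBFB_KO, against 14.6% and 16.7%, where edgeR at an unadjusted p under 0.05 and DESeq2 each gave 1 lower. HSPA9 was among the largest in WT, at 3.69 (SE 0.59, adjusted p = 0.00252), and CIAO2B, a targeting factor of the cytosolic pathway, in CBFB_KO, at 2.87 (SE 0.48, adjusted p = 0.00150). These passed in 15 and in 14 of 15 alternatives, CIAO2B missing without CBFB_KO replicate 2.

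Of 12 tested genes of haem synthesis and breakdown, 1 rose and 4 fell in CBFB_KO free. Those that fell included UROD, by 1.87 (SE 0.51, adjusted p = 0.0156), the constitutive haem oxygenase HMOX2, by 1.78 (SE 0.56, adjusted p = 0.0267), and the biliverdin reductase BLVRB, by 1.71 (SE 0.39, adjusted p = 0.00672). CPOX, a late enzyme of the pathway, rose from mono to poly by 2.62 in WT (SE 0.50, adjusted p = 0.00578) and by 3.51 in CBFB_KO (SE 0.53, adjusted p = 0.00571).

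The 9 tested genes that regulate the iron regulatory proteins or ferritin turnover gave 3 rises and 2 falls in CBFB_KO free. BACH1, the haem-sensing repressor of HMOX1 and the ferritins, rose by 3.81 (SE 1.09, adjusted p = 0.0183), or 1.87 (adjusted p = 0.144) without TMM factors. It was scarce, at 0.285 and 0.232 TMM CPM in WT free and 1.83 and 5.56 in CBFB_KO free. TAX1BP1, an autophagy receptor, rose by 2.77 (SE 0.56, adjusted p = 0.00395), or 0.90 (adjusted p = 0.183) without TMM factors. KEAP1, the adaptor that marks NRF2 for degradation, fell by 2.57 (SE 0.68, adjusted p = 0.0141). RBX1, the ring subunit of the ligase that FBXL5 joins, fell from mono to poly by 3.24 in WT (SE 0.46, adjusted p = 0.00322) and 3.01 in CBFB_KO (SE 0.45, adjusted p = 0.00571). ATG5 and NFE2L2 were called lower there too, by 1.97 and 1.43 in WT and by 2.08 and 1.51 in CBFB_KO. No other gene of this list was called lower from mono to poly, and 1 rose in WT.

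Of 11 tested NRF2 target genes, a group that HMOX1 and both ferritins also belong to, 4 rose and 1 fell in CBFB_KO free. SLC7A11, the cystine importer, was listed at 0 in WT free replicate 1, at 0.733 TMM CPM in replicate 2 and at 28.3 and 82.3 in CBFB_KO free (fitted log2 change 7.21, SE 1.29, adjusted p = 0.00209). GCLC, the catalytic subunit of glutathione synthesis, rose by 5.35 (SE 1.37, adjusted p = 0.0117), and OSGIN1 fell by 2.41 (SE 0.89, adjusted p = 0.0477). GCLC was listed at 0 in WT free replicate 1 and OSGIN1 in CBFB_KO free replicate 2, and their values were 13.2 without WT replicate 2 and -12.1 without CBFB_KO replicate 1. From free to poly NQO1, a quinone reductase, rose by 1.60 in WT (SE 0.39, adjusted p = 0.0160) and by 2.86 in CBFB_KO (SE 0.41, adjusted p = 0.000660). The WT value passed in 13 of 15 alternatives, missing without either WT gradient, and the CBFB_KO value in all 15.

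Of the 17 calls of these companion genes examined singly in free, CBFB_KO against WT, 8 missed the threshold when the CBFB_KO free library of replicate 2 alone was left out (BACH1, GCLC, HMOX2, KEAP1, NUBP2, SLC39A8, STEAP2 and UROD) and 4 when WT free replicate 1 alone was left out (HMOX2, NUBP2, OSGIN1 and UROD). Leaving out 1 of the 4 whole gradients also lost calls, most of them for CBFB_KO replicate 2, where most calls over all genes were lost too. All 6 of these fits keep 1 library in a group, so a lost call says little of a gene by itself. None of the 17 turned its direction in these fits. SLC39A14, PCBP2, CDC42BPA, EPAS1, HSPA9 and SLC7A11 kept their calls in free in all 6. Without TMM factors 7 of the 17 were lost (BACH1, EPAS1, HSPA9, SLC39A14, SLC39A8, STEAP2 and TAX1BP1), and with only the groups compared in the fit 10 were lost, EPAS1 among them. The calls over all genes went from 6882 to 7742 without TMM factors and to 1789 with only the groups compared. For WT poly to mono all 17 calls were lost without WT replicate 2, and for CBFB_KO poly to mono all 14 were lost without either CBFB_KO gradient. Over all genes those fits called 0, 1 and 1, so the loss says little of these genes, and CPOX was still at 2.77 and HSPA9 at 3.69 in WT.

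The patterns nearest to the members over the 12 libraries were taken by Pearson's r of log2 TMM CPM (prior count 2), as a description across libraries that share their free-fraction differences. For FTH1 the nearest gene was FTL (r = 0.980), followed by BEST1 (0.977), GDF11 (0.960), SNORA67 (0.956) and INO80D-AS1 (0.940). BEST1 overlaps FTH1 on the opposite strand in GENCODE 29, and with strand not stated for the counting its reads, 6.18 to 753.5 per library, cannot be told apart from those of FTH1. For FTL the nearest were FTH1 and 2 of its pseudogenes, FTH1P8 (0.977) and FTH1P7 (0.975), then GDF11 (0.975) and BEST1 (0.967). For TFRC they were EGFR (0.993), PLOD2 (0.990), KIF11 (0.989), SLC38A2 (0.986) and USP24 (0.984), and r with FTH1 was 0.0786. Pseudogenes took 0.216% to 0.329% as many counts as FTH1 and 0.0353% to 0.368% as many as FTL, and adding them changed no member's call.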

How the data were processed

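RNA from sucrose gradient fractions of MCF10A cells was sequenced with a TruSeq mRNA kit. The submitters' processing notes name Trimmomatic, STAR, RSEM and hg19; versions and the strand setting are not given in the sources used here. The authors deposited RSEM expected counts, that is estimated counts per gene with no scaling, and TPM, which RSEM corrects for transcript length and library total. The mean transcript length of each gene was also read from the deposited tables.

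Genes were named by gene identifier for 49995 rows and by transcript identifier for 1495 more (GENCODE 29, GRCh38). Rounded expected counts went into edgeR 4.0.16 with limma 3.58.1 under R 4.3.3, using TMM scaling, filterByExpr on 6 groups, quasi-likelihood tests over all 12 libraries, Benjamini-Hochberg adjustment over 16275 genes, threshold 0.05, in 9 comparisons. The standard error is the log2 change over the root of F. The interaction is the log2 ratio of poly to free (or mono) in CBFB_KO minus that in WT. The script was tested on simulated data. DESeq2 1.42.0 and 12 other alternatives were planned, and 2 that leave out a single free library were added after seeing the data. The labels do not say that replicates came from separate cultures, so p-values measure the spread between these libraries, which may be technical. Totals of 41050325 to 63886726 counts put 3 counts at 4.7e-06 to 7.3e-06 percent of a library, a limit of counting error only.

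Members and lists were chosen with earlier results of these data known. Besides the members, at most 3 genes per list and comparison were named, those with the largest change past the threshold, and for FTH1, FTL and TFRC the 5 genes with the highest correlation, without a gene's own pseudogenes. Some genes that this rule names are not reported here, though counts over the lists hold them. The deposited FPKM values and effective lengths were not used.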

Additional observations from a re-analysis of the deposited data

Results flagged for a closer look

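The change from free to poly differed between CBFB_KO and WT, by the interaction test of edgeR over all 12 libraries (adjusted p under 0.05), for TFRC at -3.73 and ACO1 at -2.50 among the members. Among the companion genes named, it was lower in CBFB_KO for SLC7A11 at -8.25, GCLC at -5.56, PCBP2 at -4.80, CDC42BPA at -3.89, SLC39A14 at -3.76, HSPA9 at -3.54, SLC39A8 at -2.74, TAX1BP1 at -2.62, EPAS1 at -2.48, TXNRD1 at -2.08 and NFE2L2 at -1.96. It was higher in CBFB_KO for HSCB at 2.35 and BLVRB at 1.69. Of all tested genes 14.3% were lower and 4.1% higher in this test. All of these values rest on the CBFB_KO free libraries, in which 71.6% and 87.2% of the counts were mitochondrial. The part of these shares in the differences was not tested, and only the scaling was varied. Leaving out the gradient of CBFB_KO replicate 2 keeps 1 library in each CBFB_KO group. Both member calls and most companion calls were then lost, as were most calls over all genes. Without TMM factors both member calls (TFRC -2.08, adjusted p = 0.0921, and ACO1 -0.71, adjusted p = 0.501) and 9 of the 13 companion calls were lost.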

How the results depend on the processing

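The counts of members called were 2 (WT poly to free), 3 (WT poly to mono), 3 (CBFB_KO poly to free), 2 (CBFB_KO poly to mono), 5 (CBFB_KO to WT in free), 2 (genotype difference in poly to free) and 0 in the other 3 comparisons. DESeq2 gave 5 for CBFB_KO poly to free and 4 for the genotype difference, as did fitting without a low-count filter. With only the groups compared in the fit, the counts were 6 for poly to mono in both WT and CBFB_KO, 1 in free between genotypes, 1 (FTH1) in poly between genotypes and 1 for the genotype difference. The CBFB_KO poly pair taken as 1 sample gave 1, 0 and 1 for CBFB_KO poly to free, CBFB_KO poly to mono and the genotype difference, and without TMM factors the free comparison between genotypes gave 2. Leaving out a gradient or a single free library gave 1 to 3 (WT poly to free), 0 to 4 (WT poly to mono), 0 to 6 (CBFB_KO poly to free), 0 to 3 (CBFB_KO poly to mono), 1 to 4 (between genotypes in free) and 0 to 3 (genotype difference); where an arm kept 1 library it was assumed to vary like the other groups. The cause of these shifts was not tested.

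The 588 alternative values tallied cover the member results whose fitted values are given above. Of these, 477 kept their direction and their side of the threshold, or were untested FTH1 values that moved by at most 1 SE. Of the rest, 55 missed the threshold, 43 newly passed it, 11 untested FTH1 values moved by over 1 SE and 2 turned sign. These were TFRC in WT poly to free without WT replicate 2 (-0.29, and 1.86 without WT replicate 1) and IREB2 in CBFB_KO poly to free without TMM factors (0.32). Outside that set HMOX1 in CBFB_KO poly to mono also turned sign, from -0.41 to 0.53 without TMM factors. Of 17 companion calls examined in CBFB_KO poly to free, 4 also turned sign without TMM factors, which moved the median of all genes by 2.17: CYBRD1 (0.35), SLC11A2 (0.89), SLC25A37 (1.15) and TAX1BP1 (0.63). That scaling shifted the median by 0.53 in WT poly to free, 0.85 and 0.90 in poly to mono, -1.60 in free between genotypes and 1.64 in the genotype difference, and DESeq2 shifted it by -0.11 in WT poly to free and -0.17 in CBFB_KO poly to free.

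Samples share only a replicate number in the labels, and correlations of their deviations between compared groups were 0.00 to 0.24. With the replicate block 3 members were called for the genotype difference, IREB2 being added (-4.67, adjusted p = 0.0325), and the other 8 counts were unchanged. The block within genotype gave the same count (IREB2 -5.08, adjusted p = 0.0370), and under it SLC25A37 in WT poly to mono, SLC39A8 and STEAP3 in CBFB_KO poly to mono, and SLC39A8, TAX1BP1 and BLVRB in the genotype difference missed the threshold (adjusted p = 0.0522 to 0.0693). Over all genes the replicate block called 1104 higher in the genotype difference in place of 668.

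Counts over all genes moved by more than 1.5 times in each comparison. The main and the lowest to highest counts, higher then lower, were 2273 (1104 to 2759) and 1301 (330 to 2325) for WT poly to free, 1784 (0 to 2766) and 1576 (0 to 2301) for WT poly to mono, 2381 (97 to 7669) and 2723 (449 to 3902) for CBFB_KO poly to free, and 1335 (0 to 4007) and 1409 (0 to 3347) for CBFB_KO poly to mono. Between genotypes they were 3943 (1281 to 4732) and 2939 (61 to 6461) in free, 5 (0 to 51) and 19 (2 to 70) in mono, and 4 (0 to 65) and 27 (0 to 113) in poly. The genotype difference gave 668 (2 to 3003) and 2332 (360 to 3264) for poly to free and 0 (0 to 7) and 0 (0 to 9) for poly to mono. The lowest and highest counts come from different settings. Without TMM factors the higher and lower counts were 2495 and 347 (WT poly to free), 2766 and 270 (WT poly to mono), 7669 and 566 (CBFB_KO poly to free), 2520 and 161 (CBFB_KO poly to mono), 1281 and 6461 (between genotypes in free) and 3003 and 646 (genotype difference in poly to free). DESeq2 gave 2113 and 3264 for that difference, 51 and 70 in mono and 38 and 73 in poly.

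Depth limited IREB2, HMOX1 and ACO1 most, with as few as 1, 5 and 46 counts in a library.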
